A study of Mus musculus with 8 samples.

Results

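Imprinted genes are transcribed mainly from the chromosome inherited from one parent. Of a list of 41 such mouse genes, 40 had values in both deposited tables, which share 19896 gene IDs, and Dcn was not analysed here. The list was made by gene name from known imprinted loci. By the allele known to be expressed, 23 of the listed genes are paternally and 16 maternally expressed, and for Grb10 and Gnas the allele that is read depends on the tissue. The genes belong to 17 loci, 7 of which hold more than 1 listed gene, plus 5 single genes known for imprinting in extraembryonic tissue.

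Poly(A) RNA was sequenced from mouse E14 embryonic stem cells, an established pluripotent line grown in serum with LIF. Cct7 KD cells carried a doxycycline-inducible pLKO-Tet-On-Puro vector with a short hairpin RNA against Cct7, and Cct5 KD cells one against Cct5. Cct7 KD Ctr and Cct5 KD Ctr cells carried the vector without a hairpin. Puromycin selection (0.5 µg/ml, 14 days) and the picking of positive clones were shared by all 4 groups, and so was a doxycycline treatment (2 µg/ml, 2 days), which the controls also had. Each group has 2 libraries, and nothing says whether they came from separate cultures, so the p-values measure the spread between these libraries. With picked clones and 2 libraries per group, differences between clones and effects of a hairpin cannot be told apart here. Cct5 and Cct7 encode subunits of the CCT (TRiC) chaperonin, which folds actin, tubulin and other proteins, and the study asked whether these subunits hold back a move from pluripotency towards totipotency.

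Imprinted genes lie in clusters, and a methylated control region inherited from one parent sets which allele is read. The mark is kept through the first divisions of the embryo and in embryonic stem cells by ZFP57, a zinc finger protein that binds the methylated hexamer TGCCGC, together with its partner TRIM28 and the maintenance methyltransferase DNMT1. Many paternally expressed genes promote growth of the fetus or placenta and many maternally expressed genes restrain it. The libraries count RNA from both alleles together, so each value below is the sum of the alleles, and the allele given for a gene is background knowledge.

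The promoters of a few genes on which the results turn are shown first, with the hexamer in capitals on either strand (TGCCGC, or GCGGCA where it is read from the other strand). Each window runs from 250 bases before to 50 bases after a gene start and was taken from RefSeq on GRCm38.p6. Peg3 and Usp29 are read in opposite directions from one promoter, and their windows share 263 bases. The Usp29 window at chr7:6730333-6730632 on the plus strand is shown for both, since both genes were lower in Cct7 KD, and it holds no copy of the hexamer. Nnat at chr2:157559828-157560127 and Plagl1 at chr10:13090582-13090881, both on the plus strand, are shown as genes that were higher. Mest at chr6:30737800-30738099 on the plus strand was higher in Cct7 KD but lower in the remainder of the Cct5 KD values described below. This Mest window holds 2 copies, while another Mest window, at chr6:30733256-30733555, holds 0. Mcts2 at chr2:152686898-152687197 on the plus strand was lower in Cct7 KD. The windows printed were a choice, and the share of listed genes with the hexamer is given below. The Phlda2 window, of a gene that was lower in Cct7 KD, holds 0 copies and is not printed. Peg10 and Sgce had no window.
Usp29: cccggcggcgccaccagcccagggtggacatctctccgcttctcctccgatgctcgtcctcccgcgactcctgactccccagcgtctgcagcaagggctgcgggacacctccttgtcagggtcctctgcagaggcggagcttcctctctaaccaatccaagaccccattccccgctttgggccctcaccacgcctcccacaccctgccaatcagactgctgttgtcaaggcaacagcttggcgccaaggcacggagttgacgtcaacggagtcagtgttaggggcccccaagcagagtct
Nnat: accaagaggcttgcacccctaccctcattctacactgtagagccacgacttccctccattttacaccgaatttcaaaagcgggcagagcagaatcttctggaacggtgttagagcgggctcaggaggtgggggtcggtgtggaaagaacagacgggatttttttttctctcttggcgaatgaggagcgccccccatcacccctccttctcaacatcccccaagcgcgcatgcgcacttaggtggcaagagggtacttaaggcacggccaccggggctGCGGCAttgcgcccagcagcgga
Plagl1: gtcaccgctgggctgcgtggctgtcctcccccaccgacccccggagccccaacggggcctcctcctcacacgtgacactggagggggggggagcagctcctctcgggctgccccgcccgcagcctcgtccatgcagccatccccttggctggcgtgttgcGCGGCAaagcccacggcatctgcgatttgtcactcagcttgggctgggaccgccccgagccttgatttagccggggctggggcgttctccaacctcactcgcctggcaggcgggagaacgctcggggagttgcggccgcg
Mest: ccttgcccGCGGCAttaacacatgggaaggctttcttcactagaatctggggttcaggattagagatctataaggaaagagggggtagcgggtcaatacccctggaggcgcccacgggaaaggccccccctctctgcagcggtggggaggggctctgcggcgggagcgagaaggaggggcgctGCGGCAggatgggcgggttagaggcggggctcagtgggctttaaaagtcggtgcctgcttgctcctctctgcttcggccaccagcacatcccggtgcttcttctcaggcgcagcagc
Mcts2: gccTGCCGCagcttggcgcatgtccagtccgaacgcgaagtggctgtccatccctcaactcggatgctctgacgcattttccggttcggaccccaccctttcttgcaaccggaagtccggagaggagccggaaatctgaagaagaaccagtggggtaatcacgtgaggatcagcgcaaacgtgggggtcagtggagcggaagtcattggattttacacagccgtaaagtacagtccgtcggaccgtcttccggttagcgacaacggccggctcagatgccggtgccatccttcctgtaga

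The hexamer stood in at least 1 window of 10 of the 33 imprinted genes that had a window (30.3%), namely Calcr, Grb10, Igf2, Mcts2, Meg3, Mest, Nnat, Plagl1, Snrpn and Zim1. Of all 27025 genes with a window, 13.1% had it. Counted by window, it was in 11 of 54 windows of imprinted genes (20.4%) and in 11.6% of 32851 windows overall. Genes that were higher and genes that were lower in Cct7 KD are both among the 10. They are also both among those without a copy, such as Ndn, Sfmbt2 and Gnas (higher) and Peg3, Usp29 and Phlda2 (lower). A copy of the hexamer is a description of the sequence and was not tied to binding here.

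The knockdowns were visible in their target genes. Cct7 had 14.4 and 17.8 FPKM (fragments per kilobase of transcript, scaled to the library's mapped fragments) in the Cct7 KD libraries, against 269 and 280.1 in Cct7 KD Ctr. Cct5 had 70.8 and 73.4 FPKM in the Cct5 KD libraries, against 368 and 367 in Cct5 KD Ctr. The depth that the steps between low FPKM values imply was about 18850000 to 20790000 fragments in Cct7 KD and 21210000 to 54750000 fragments in the controls. No depth could be read in Cct5 KD, whose FPKM values summed to 747293 and 749001, against 496507 and 497663 in Cct5 KD Ctr. For 449 and 427 IDs the same-numbered columns of Cct5 KD and Cct7 KD stood in a ratio of 1.125, within a relative tolerance of 1e-06, and 15 IDs lay below this multiple. Cct5 is among those below it, since it had 280 and 271 FPKM in Cct7 KD. The low Cct5 value in Cct5 KD thus does not follow the relation of the other IDs and does not vouch for their values. The multiple makes up 71.3% of the Cct5 KD total. The Cct5 KD columns are therefore not an independent second knockdown, and they are described after Cct7 KD and split into the multiple and the remainder.

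All 12 pluripotency markers of a fixed list were still read in both Cct7 KD libraries, the lowest being Utf1 with 14.8 and 15.8 FPKM. Their summed level was 1116 to 1125 FPKM in Cct7 KD and 4698 to 4909 FPKM in Cct7 KD Ctr, and 11 of the 12 passed the test as lower in Cct7 KD. Of 13 trophoblast markers, 11 had values, 7 were tested and 5 of these were higher and 2 lower, with a sum of 273.6 to 278.9 FPKM in Cct7 KD and 62.4 to 63.1 in Cct7 KD Ctr. The trophoblast sum came mostly from Krt8, Krt18, Rhox6 and Rhox9. Cdx2, which defines trophoblast stem cells, stayed at 0.213 and 0.141 FPKM in Cct7 KD and 0 and 0.0759 in Cct7 KD Ctr. Eomes and Tfap2c were lower in Cct7 KD, and Eomes entered the test only through its control level. Of 12 primitive endoderm markers, 11 had values, with a sum of 21.3 to 23.2 FPKM in Cct7 KD and 14.8 to 15.2 in Cct7 KD Ctr. Of the 5 tested, 4 were higher and 1 lower, or 3 and 1 with the scaling described below. The shares of all genes were 49.3% and 32.0%, or 37.1% and 44.0% with scaling. Gata6, Pdgfra and Afp entered the test only through their Cct7 KD levels and so had to be higher. Cubn, which averaged under 1 FPKM and was not tested, lay below its controls. Gata4, Sox7, Foxa2 and Amn, likewise untested, lay above theirs. The fibroblast sum, from 5 of 10 markers, was 12.03 to 12.64 FPKM in Cct7 KD and 10.3 to 11.1 in Cct7 KD Ctr. It joins opposite moves of the 2 markers tested. Thy1 was lower, with 4.91 and 5.13 FPKM in Cct7 KD and 8.07 and 8.80 in Cct7 KD Ctr. Pdgfrb was higher, with 5.38 and 5.81 against 1.39 and 1.51. Col1a1, Col1a2 and Postn, all below 1 FPKM, lay above their controls in both Cct7 KD libraries. The part of these shifts in the values of the imprinted genes was not tested, and in bulk RNA a change in the share of a cell type and a change in RNA per cell cannot be told apart.

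In the control cells the imprinted genes spanned a wide range of levels. Over the 4 control libraries, 3 genes had a median above 100 FPKM, 12 lay between 10 and 100, 15 between 1 and 10, and 10 below 1. The highest were Impact, an inhibitor of the stress kinase GCN2, with 538 FPKM, Mest, a hydrolase-fold protein, with 328, and Meg3, a growth-restraining non-coding RNA, with 102. The lowest were Rasgrf1, a Ras activator, with 0.0476 FPKM and Airn, the non-coding RNA that silences its neighbours on the paternal allele, with 0.160. The highest and lowest control library differed by less than 1.5-fold for 33 of the 40 genes. The widest spread was that of Airn, at 5.31-fold, on very low values.

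**Figure D1:**
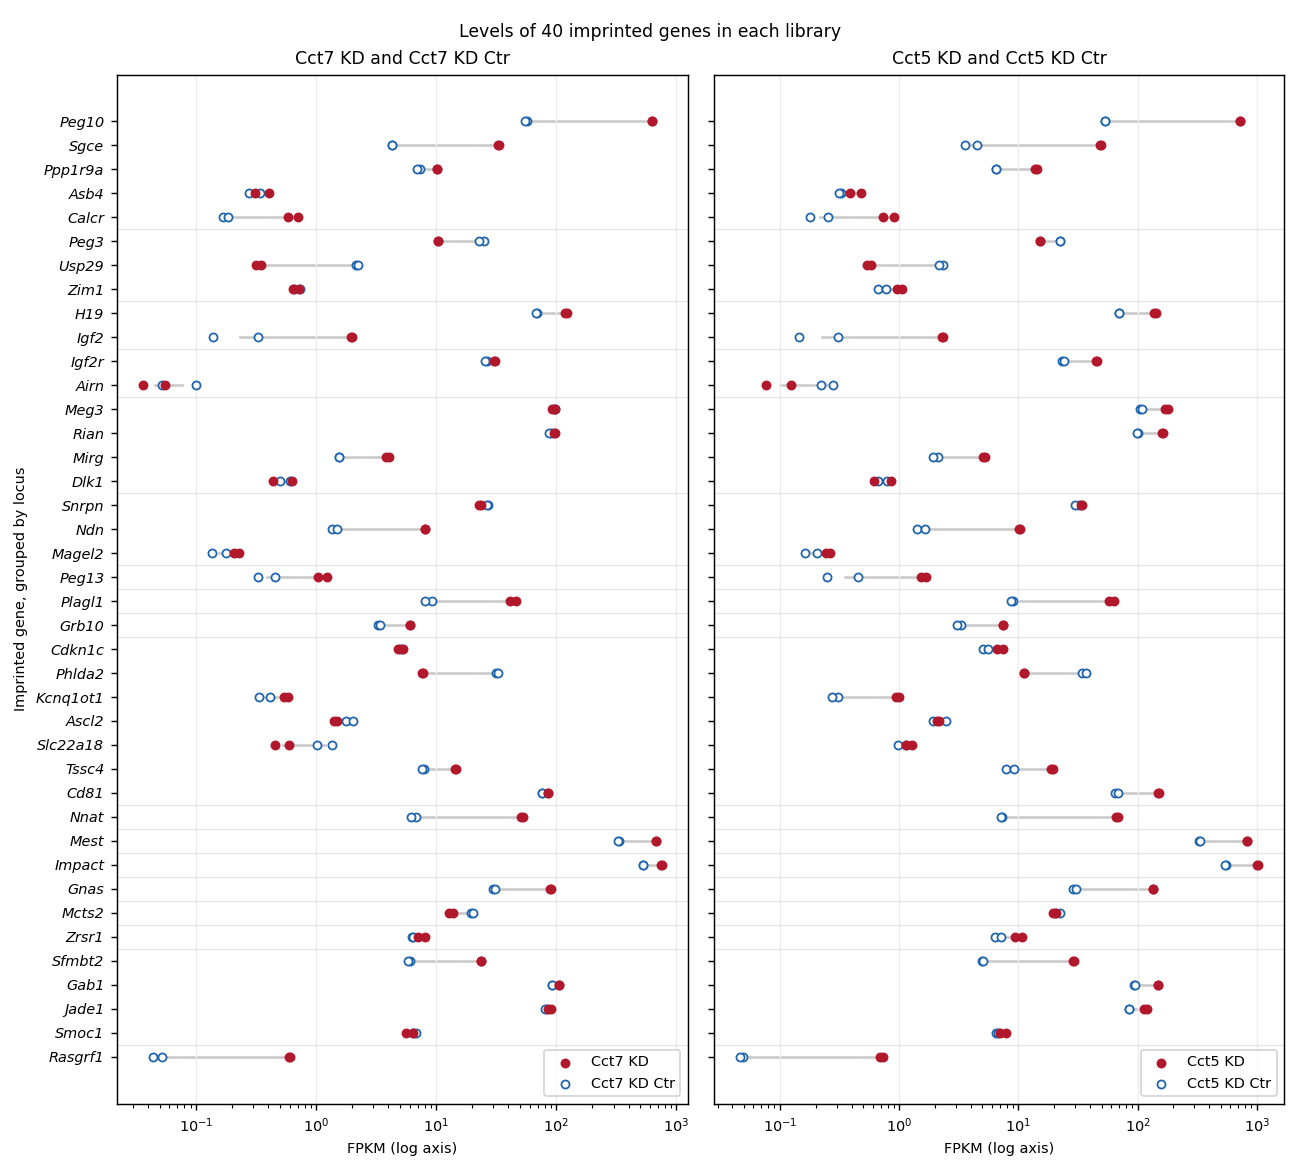
FPKM on a log axis for the 40 imprinted genes, grouped by locus, with the 2 libraries of each knockdown as filled points and its 2 control libraries as open points. In Cct7 KD the largest gaps to the controls are upward, as for Peg10 at 628 and 633 FPKM, and Phlda2, Usp29 and Peg3 lie clearly to the left of their controls.

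In Cct7 KD, both libraries lay above both controls for 26 of the 40 genes and below for 8, and the groups overlapped for 6. The share without overlap was thus 85.0%, the same as the 85.0% over all 20897 IDs of the table. The test took genes that averaged 1 FPKM or more, 30 of the list, and 20 passed as higher and 6 as lower (limma on log2(FPKM + 1), Benjamini-Hochberg adjusted p under 0.05), while 81.4% of the 13588 genes tested were called in one direction or the other, 49.3% as higher and 32.0% as lower. The median change was 0.34 on the log2 scale for the 30 imprinted genes and 0.15 for all genes tested. When the libraries were first scaled by the median of ratios, the median over all genes moved to -0.07, that of the imprinted genes to 0.12, and the split became 15 higher and 12 lower, against 37.1% and 44.0% of all genes (81.0% in either direction). Without the filter on low values, 23 of 40 imprinted genes were higher and 6 lower, against 43.6% and 24.9% of 20897 genes. Rises under about 0.25 on the log2 scale therefore depend on the scaling for their direction, while falls grow with it. Below, log2 values after scaling stand beside most of those of the imprinted genes tested in Cct7 KD. Changes of other genes are mostly given without scaling.

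**Figure D2:**
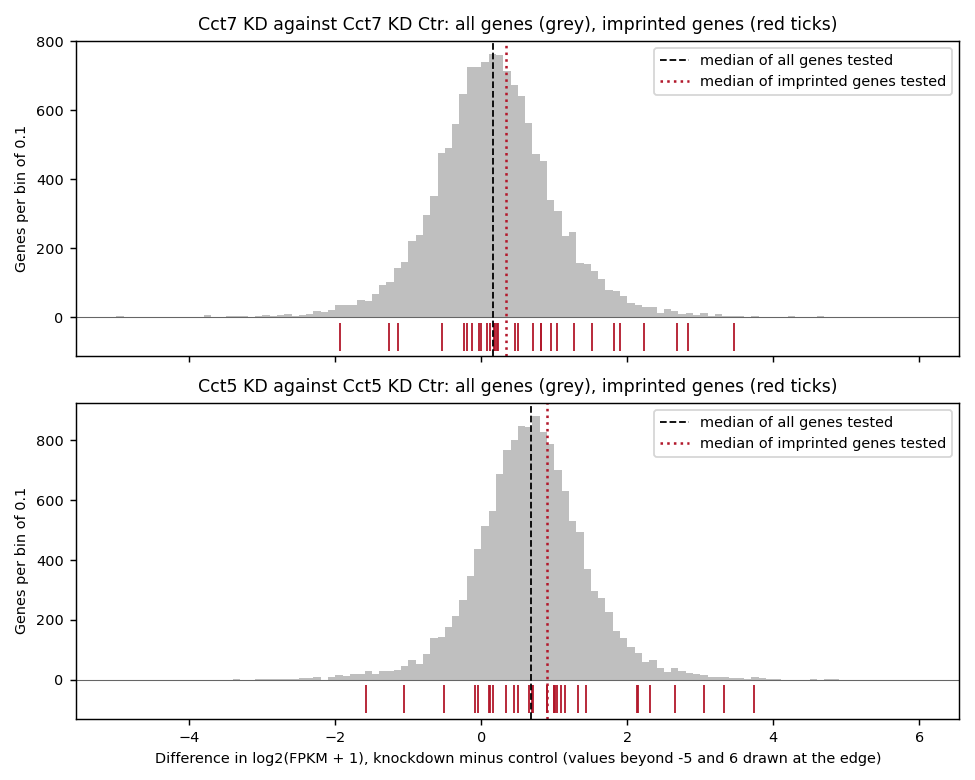
Number of genes per bin of 0.1 of the difference in log2(FPKM + 1), knockdown minus control, for all genes tested (grey), with each imprinted gene as a red tick, in Cct7 KD (top) and Cct5 KD (bottom). The medians of the imprinted genes, 0.34 in Cct7 KD and 0.89 in Cct5 KD, lie within the bulk of all genes, whose medians are 0.15 and 0.68; after scaling the medians of all genes are -0.07 and -0.05.

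Changes of 2-fold or more, counted here as a difference of at least 1 in log2(FPKM + 1), were fewer. On that scale 9 of the 30 genes were higher and 3 lower, against 13.5% and 6.60% of all genes tested (20.1% in either direction). Paternally expressed genes held 8 of the 9 rises (Peg10, Sgce, Nnat, Plagl1, Ndn, Sfmbt2, Igf2 and Mest), and the other was Gnas. Of the 17 paternally expressed genes tested, 8 were higher and 2 lower by this measure, while of the 11 maternally expressed genes 0 were higher and 1, Phlda2, was lower. After scaling the counts were 7 and 2 of 17 paternally expressed genes and 0 and 1 of 11 maternally expressed genes, against 9.53% and 10.4% of all genes (19.9% in either direction). The pseudocount of 1 sets which genes near the limit are counted: the mean FPKM of Mirg, which is maternally expressed, was 2.55-fold higher in Cct7 KD (2.14-fold after scaling), but its difference of 0.96 fell short. The difference between the alleles was not tested, since genes of a locus share their control region. Igf2 entered the test only through its level in Cct7 KD, and a gene that enters so had to differ.

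**Figure D3:**
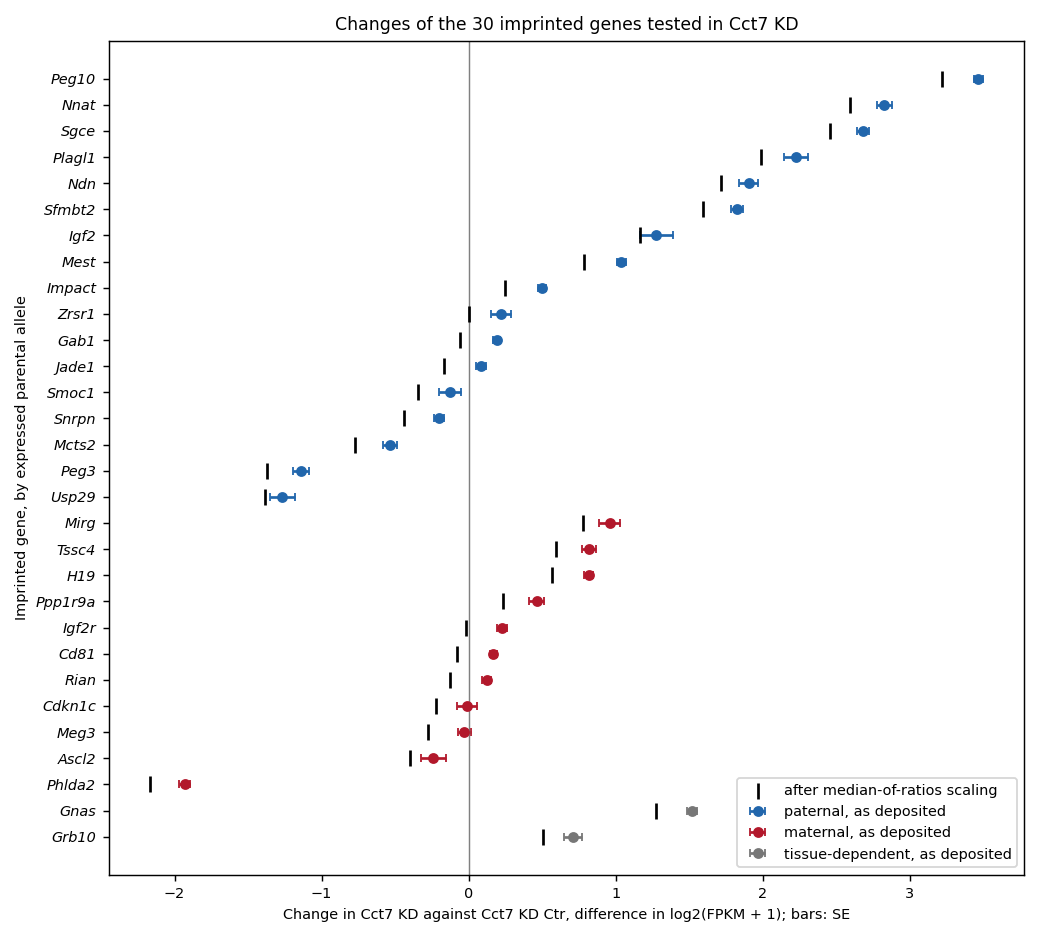
Difference in log2(FPKM + 1), Cct7 KD minus Cct7 KD Ctr, for the 30 imprinted genes tested, as points with the SE of the limma fit, coloured by the parental allele known to be expressed; black ticks give the value after median-of-ratios scaling. Paternally expressed genes run from Peg10 at 3.47 to Usp29 at -1.27, and maternally expressed genes from Mirg at 0.96 to Phlda2 at -1.93; Igf2r, Rian, Cd81, Gab1 and Jade1 cross 0 with the scaling.

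The Peg10 locus on chromosome 6 held the largest rise of the list on the log2(FPKM + 1) scale. Peg10 is a retrotransposon-derived gene that the placenta needs, and Sgce encodes epsilon-sarcoglycan, a membrane protein; the pair is paternally expressed and starts 0.099 kb apart in opposite directions. Peg10 (chr6:4747306-4760517, plus strand) had 628 and 633 FPKM in the Cct7 KD libraries, against 57.3 and 55.0 in Cct7 KD Ctr, an 11.2-fold difference of the means. It rose by 3.47 ± 0.03 (SE) on the log2 scale (limma adjusted p = 4.79e-07) and by 3.22 after scaling. Sgce (chr6:4674350-4747207, minus strand) had 32.5 and 33.3 FPKM in Cct7 KD and 4.30 in each library of Cct7 KD Ctr, and rose by 2.68 ± 0.04 (limma adjusted p = 1.16e-06), or 2.45 after scaling. For both genes the knockdown libraries stood far outside the spread of the controls.

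The maternally expressed genes of that locus moved less. Ppp1r9a, which encodes the actin-binding protein neurabin, had 10.2 and 10.3 FPKM in Cct7 KD and 7.34 and 6.94 in Cct7 KD Ctr, a rise of 0.46 ± 0.05 (limma adjusted p = 0.000375), or 0.24 after scaling. Calcr, the calcitonin receptor, was below the 1 FPKM filter, with 0.582 and 0.712 FPKM in Cct7 KD and 0.168 and 0.184 in Cct7 KD Ctr. Without the filter, a fit in which 68.5% of 20897 genes were called, Calcr passed as higher by 0.48 (limma adjusted p = 0.0019). Asb4, a ubiquitin ligase adaptor, had 0.308 and 0.403 FPKM in Cct7 KD and 0.340 and 0.274 in Cct7 KD Ctr, and the groups overlapped.

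Genes on both sides of Peg10, most of them not on the list, were also higher in Cct7 KD. Of the 11 genes with at least 1 FPKM in a group whose start lies within 900 kb of that of Peg10, all 11 were tested, 10 were higher, with and without scaling, and none was lower, a window chosen after the values were seen. Of all genes tested 49.3% were higher, or 37.1% after scaling, and the 10 include the listed genes Peg10, Sgce and Ppp1r9a. Tfpi2, an extracellular protease inhibitor imprinted in the placenta, had 4.54 and 4.83 FPKM in Cct7 KD and 0.281 and 0.202 in Cct7 KD Ctr and rose by 2.19. Tfpi2, Gng11 and Gm44250 entered the test only through their Cct7 KD levels and so had to be higher. Casd1, a sialic acid acetyltransferase whose start is 146.5 kb from that of Peg10, had 6.67 and 6.38 FPKM in Cct7 KD and 2.76 and 2.52 in Cct7 KD Ctr and rose by 1.05. The paraoxonase genes Pon3 and Pon2, at 509 and 551.1 kb on the other side, rose by 1.01 and 0.97. Pdk4, at 749 kb, did not pass, with a difference of 0.12 that became -0.07 after scaling.

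**Figure D4:**
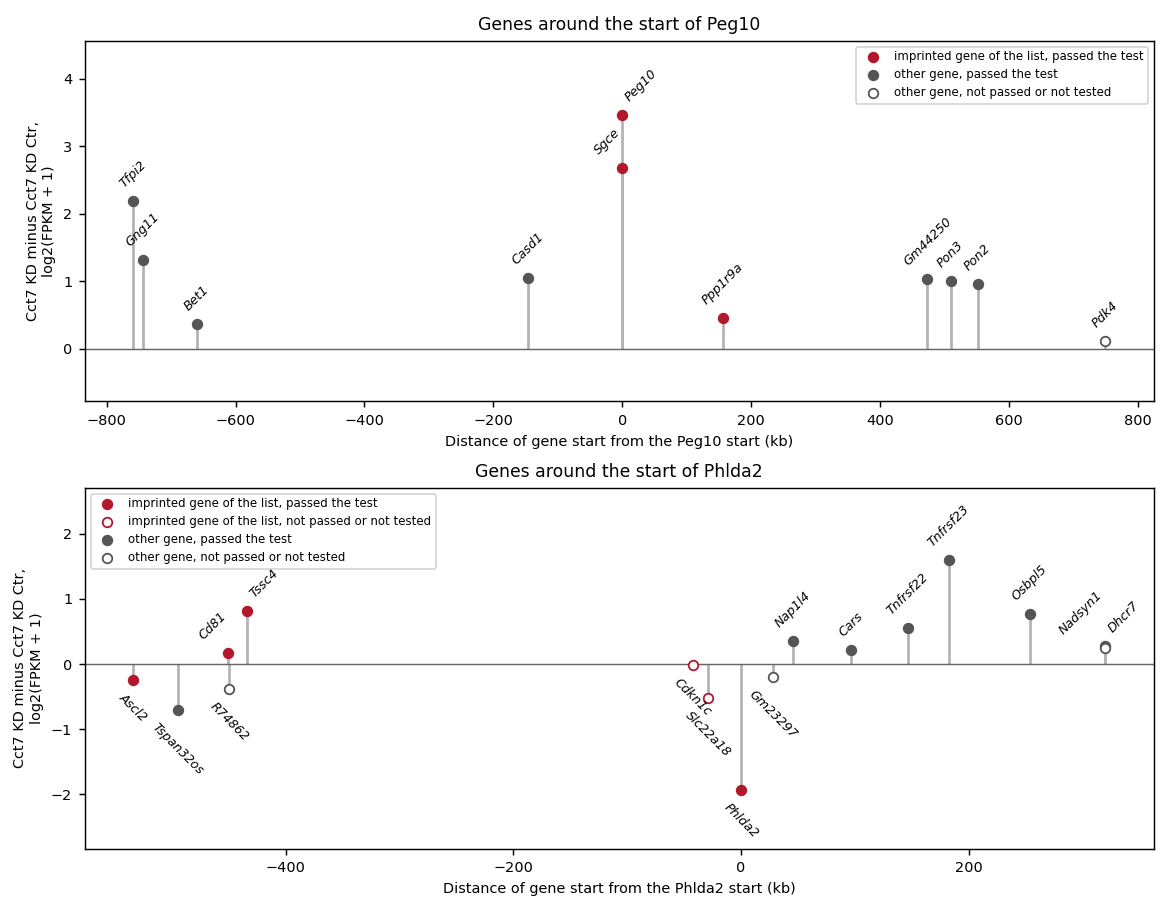
Difference in log2(FPKM + 1), Cct7 KD minus Cct7 KD Ctr and without scaling, of genes with at least 1 FPKM in a group against the distance of their start from that of Peg10 (top) and Phlda2 (bottom), in kb. Around Peg10, 10 of 11 genes passed as higher, against 49.3% of all genes tested, in a window chosen after the values were seen. The 10 include Peg10 itself, and Tfpi2, Gng11 and Gm44250, which entered the test only through their Cct7 KD levels. Around Phlda2, which fell by 1.93, the neighbours run from -0.71 (Tspan32os) to 1.60 (Tnfrsf23). Small differences such as those of Cd81 and Cars turn negative after scaling.

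Single paternally expressed genes at other loci were also far above the controls. Nnat, which encodes neuronatin, a small membrane protein of the endoplasmic reticulum, had 53.2 and 50.9 FPKM in Cct7 KD, against 6.79 and 6.18 in Cct7 KD Ctr. It rose by 2.83 ± 0.05 (limma adjusted p = 1.67e-06), or 2.59 after scaling. Nnat lies in an intron of Blcap, which rose as well, by 0.85, with 83.2 and 89.1 FPKM in Cct7 KD and 45.7 and 48.6 in Cct7 KD Ctr. Plagl1, a zinc finger transcription factor that regulates other imprinted genes, had 41.4 and 46.5 FPKM in Cct7 KD and 9.22 and 8.01 in Cct7 KD Ctr. It rose by 2.23 ± 0.08 (limma adjusted p = 7.96e-06), or 1.99 after scaling, the groups standing well apart.

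Sfmbt2, a polycomb-group protein that trophoblast needs, had 23.6 and 23.4 FPKM in Cct7 KD and 6.02 and 5.85 in Cct7 KD Ctr, and rose by 1.82 ± 0.04 (limma adjusted p = 2.42e-06), or 1.59 after scaling. The other genes imprinted in extraembryonic tissue that were tested changed less or did not pass. Gab1, an adaptor of receptor tyrosine kinases, had 104.9 and 105.9 FPKM in Cct7 KD and 92.8 and 91.8 in Cct7 KD Ctr, a difference of 0.19 that passed (limma adjusted p = 0.000817) but became -0.06 after scaling. Jade1, a subunit of a histone acetyltransferase complex, and Smoc1, a secreted matrix protein, did not pass, with differences of 0.08 and -0.13. After scaling both passed as lower, at -0.17 and -0.35 (limma adjusted p = 0.00858 and 0.00741). For Jade1 the 89.6 and 85.2 FPKM in Cct7 KD lay close above the 83.6 and 81.3 in Cct7 KD Ctr.

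At the Snrpn locus on chromosome 7 the genes diverged. Ndn, which encodes necdin, a growth-restraining protein of neurons, had 8.08 and 8.11 FPKM in Cct7 KD and 1.37 and 1.498 in Cct7 KD Ctr, and rose by 1.90 ± 0.07 (limma adjusted p = 6.67e-06), or 1.71 after scaling. Snrpn, the source of the spliceosomal protein SmN, had 23.4 and 22.8 FPKM in Cct7 KD and 26.8 and 26.5 in Cct7 KD Ctr. It fell by 0.20 on the log2 scale, with an SE of 0.03 (limma adjusted p = 0.00226), or by 0.44 after scaling. Snrpn shares 27.3% of its exon bases with Gm38393 on the same strand, which had 131 and 126 FPKM in Cct7 KD and 201 and 179.7 in Cct7 KD Ctr, so how reads were divided between them bears on both values. Magel2, a neighbour of Ndn, was low, with 0.208 and 0.229 FPKM in Cct7 KD and 0.135 and 0.176 in Cct7 KD Ctr, and was not called without the filter.

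Mest and Impact, the most abundant genes of the list in the controls, rose by less on the log2 scale than Peg10 or Nnat. Mest had 676 and 681 FPKM in Cct7 KD and 336 and 324 in Cct7 KD Ctr, and rose by 1.04 ± 0.03 (limma adjusted p = 4.35e-06), or 0.79 after scaling. Mest shares 23.1% of its exon bases with Copg2 on the opposite strand, and the strand setting used in counting is not given; Copg2 had 26.7 and 27.7 FPKM in Cct7 KD and 28.7 and 30.1 in Cct7 KD Ctr, far below Mest. Impact had 756 and 742 FPKM in Cct7 KD and 530.4 and 528 in Cct7 KD Ctr, and rose by 0.50 ± 0.03 (limma adjusted p = 3.01e-05), or 0.25 after scaling. Gnas, which encodes the stimulatory G protein subunit and is biallelic in most tissues, had 89.8 and 88.3 FPKM in Cct7 KD and 29.7 and 31.1 in Cct7 KD Ctr, and rose by 1.52 ± 0.03 (limma adjusted p = 2.27e-06), or 1.27 after scaling. Its antisense RNA Nespas, which overlaps 8.83% of its exon bases, went the other way, with 1.20 and 1.23 FPKM in Cct7 KD and 2.29 and 2.81 in Cct7 KD Ctr, and fell by 0.68. Gm20721, also on the opposite strand and overlapping 13.1% of the exon bases of Gnas, had 3.21 and 3.25 FPKM in Cct7 KD and 0.934 and 0.838 in Cct7 KD Ctr, and rose by 1.17, having entered the test only through its Cct7 KD level. Grb10, an adaptor that restrains insulin signalling, had 6.06 FPKM in each Cct7 KD library and 3.26 and 3.37 in Cct7 KD Ctr, and rose by 0.71 ± 0.06 (limma adjusted p = 0.000125), or 0.50 after scaling.

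At the Igf2-H19 locus both reciprocally imprinted genes were higher. H19, a maternally expressed non-coding RNA that restrains growth, had 119 and 123 FPKM in Cct7 KD and 69.4 and 67.2 in Cct7 KD Ctr, and rose by 0.82 ± 0.03 (limma adjusted p = 9.83e-06), or 0.57 after scaling. Igf2, the paternally expressed growth factor, had 2.00 and 1.96 FPKM in Cct7 KD and 0.138 and 0.330 in Cct7 KD Ctr, and rose by 1.28 ± 0.11 (limma adjusted p = 0.000161), or 1.17 after scaling. H19 thus stayed the far more abundant transcript per length in both groups. Igf2 shares 62.8% of its exon bases with Gm49394 on the same strand, so its level depends on how shared reads were treated.

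At the Igf2r locus the receptor that clears IGF2 moved little. Igf2r had 30.5 and 30.8 FPKM in Cct7 KD and 26.6 and 25.5 in Cct7 KD Ctr, a difference of 0.22 that passed (limma adjusted p = 0.00166) but was -0.02 after scaling. Airn had 0.0361 and 0.0548 FPKM in Cct7 KD and 0.0523 and 0.1002 in Cct7 KD Ctr, with overlapping groups, and was not called without the filter. At this level no difference in Airn was detectable.

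The 3 maternally expressed non-coding RNAs of the Dlk1-Meg3 locus on chromosome 12 differed from each other. Meg3 had 91.4 and 98.1 FPKM in Cct7 KD and 98.4 and 94.9 in Cct7 KD Ctr; the groups overlapped and it did not pass, with -0.03 ± 0.04 (limma adjusted p = 0.542), while after scaling it passed as lower, at -0.28. Rian, host of small nucleolar RNAs, had 97.5 and 95.5 FPKM in Cct7 KD and 90.1 and 87.0 in Cct7 KD Ctr, a difference of 0.12 that passed (limma adjusted p = 0.011) but was -0.13 after scaling. Mirg, host of microRNAs at the far end of the cluster, had 4.07 and 3.82 FPKM in Cct7 KD and 1.56 and 1.54 in Cct7 KD Ctr, and rose by 0.96 ± 0.07 (limma adjusted p = 8.95e-05), or 0.78 after scaling. Dlk1, the paternally expressed Notch-like protein, had 0.434 and 0.626 FPKM in Cct7 KD and 0.606 and 0.498 in Cct7 KD Ctr, with overlapping groups.

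The genes that fell by 2-fold or more belonged to 2 loci on chromosome 7. Peg3, a paternally expressed zinc finger protein, had 10.4 and 10.3 FPKM in Cct7 KD and 25.2 and 22.9 in Cct7 KD Ctr. It fell by 1.14 on the log2 scale, with an SE of 0.05 (limma adjusted p = 1.79e-05), and by 1.37 after scaling. Usp29, a deubiquitinase read in the opposite direction from the same promoter, had 0.345 and 0.316 FPKM in Cct7 KD and 2.15 and 2.25 in Cct7 KD Ctr, a 6.67-fold lower mean. It fell by 1.27, with an SE of 0.09 (limma adjusted p = 5.99e-05), and by 1.38 after scaling, and it entered the test only through its level in the controls. The genes of the shared promoter printed above thus both fell. Farther out, the zinc finger gene Zfp264 rose by 1.15, and Zim2, which entered the test only through its Cct7 KD level, by 0.84, while Aurkc and Zfp28 fell by 0.97 and 0.50. Zim1, a maternally expressed zinc finger gene of the locus, had 0.644 and 0.716 FPKM in Cct7 KD and 0.733 and 0.658 in Cct7 KD Ctr, and the groups overlapped.

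Phlda2, a maternally expressed protein that limits growth of the placenta, fell most of all genes on the list on the log2(FPKM + 1) scale. It had 7.69 and 7.62 FPKM in Cct7 KD and 31.4 and 32.7 in Cct7 KD Ctr, a 4.18-fold lower mean, and fell by 1.93 on the log2 scale, with an SE of 0.04 (limma adjusted p = 1.96e-06), and by 2.16 after scaling. The maternally expressed genes of its locus depend on the silencing RNA Kcnq1ot1, and those on the list differed in direction. Cdkn1c, the cell cycle inhibitor p57, had 5.32 and 4.76 FPKM in Cct7 KD and 4.96 and 5.19 in Cct7 KD Ctr, with overlapping groups and -0.01 ± 0.07 (limma adjusted p = 0.899), though it passed as lower after scaling, at -0.22. On the opposite strand Gm44732 shares 30.7% of the exon bases of Cdkn1c, which makes the Cdkn1c value uncertain without the strand setting. Slc22a18, a transporter, was below the filter, with 0.600 and 0.451 FPKM in Cct7 KD and 1.03 and 1.35 in Cct7 KD Ctr, and without the filter it passed as lower, at -0.52 (limma adjusted p = 0.00858). Ascl2, a transcription factor of trophoblast, had 1.499 and 1.419 FPKM in Cct7 KD and 1.78 and 2.03 in Cct7 KD Ctr. Its difference of -0.24 passed by little (limma adjusted p = 0.0449) and did not pass without any one of the 4 libraries, at adjusted p from 0.0555 to 0.205.

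Other maternally expressed genes of the Kcnq1ot1 locus went up or stayed. Tssc4, which takes part in assembling splicing particles, had 14.7 and 14.3 FPKM in Cct7 KD and 7.98 and 7.57 in Cct7 KD Ctr, and rose by 0.82 ± 0.05 (limma adjusted p = 3.37e-05), or 0.59 after scaling. Cd81, a tetraspanin, had 85.7 and 86.0 FPKM in Cct7 KD and 76.5 and 76.2 in Cct7 KD Ctr, a difference of 0.17 that passed (limma adjusted p = 0.00133) but was -0.08 after scaling. Kcnq1ot1 itself had 0.541 and 0.581 FPKM in Cct7 KD and 0.412 and 0.336 in Cct7 KD Ctr; the groups did not overlap, but without the filter it missed the threshold (limma adjusted p = 0.0531). Within 600 kb of Phlda2, a window likewise chosen after the values were seen, 14 genes were tested. Of these, 8 were higher and 3 lower, against 49.3% and 32.0% of all genes tested. After scaling 5 were higher and 6 lower, against 37.1% and 44.0%. Tnfrsf23 and Osbpl5 entered that count only through their Cct7 KD levels, and Tspan32os only through its control level.

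The retrogenes Mcts2 and Zrsr1, each paternally expressed from within an intron of another gene, differed from each other. Mcts2, a copy of the translation factor gene Mcts1, had 13.8 and 12.8 FPKM in Cct7 KD and 19.4 and 20.1 in Cct7 KD Ctr. It fell by 0.54, with an SE of 0.05 (limma adjusted p = 0.000185), and by 0.77 after scaling. Its host H13 rose by 1.15, to 10.2 and 10.7 FPKM in Cct7 KD, against 4.12 and 4.15 in Cct7 KD Ctr. The parent gene Mcts1 differed by 0.24, which passed but was -0.01 after scaling, and reads could be misplaced between it and its near copy. Zrsr1, a splicing factor relative, had 8.05 and 7.10 FPKM in Cct7 KD and 6.34 and 6.35 in Cct7 KD Ctr; its difference of 0.22 passed (limma adjusted p = 0.0282) but was 0.00 after scaling, and it did not pass without Cct7 KD replicate 1 or without either control (limma adjusted p from 0.0741 to 0.129).

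The last 2 paternally expressed genes were low. Rasgrf1 had 0.612 and 0.595 FPKM in Cct7 KD and 0.0437 and 0.0524 in Cct7 KD Ctr, a 12.6-fold higher mean, and passed without the filter as higher by 0.61 (limma adjusted p = 0.000321). Peg13, a non-coding RNA within Trappc9, had 1.04 and 1.22 FPKM in Cct7 KD and 0.454 and 0.327 in Cct7 KD Ctr and also passed without the filter, as higher by 0.62 (limma adjusted p = 0.00219). In both cases the groups stood apart, and the small log2 differences come from the pseudocount of 1, which compresses changes at low levels.

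Genes that read or keep the imprint were mostly lower in Cct7 KD. All 24 genes of a list of imprint maintenance factors were tested, and 14 fell and 5 rose, with a median of -0.20 against 0.15 for all genes. Of all genes tested 32.0% were lower and 49.3% higher. After scaling 20 fell and 2 rose, against 44.0% and 37.1% of all genes. Zfp57 had 84.5 and 88.5 FPKM in Cct7 KD and 197 and 193 in Cct7 KD Ctr, and fell by 1.16 (limma adjusted p = 3.86e-06). Trim28 had 685 and 691 FPKM in Cct7 KD and 1533 and 1532 in Cct7 KD Ctr, and fell by 1.15 (limma adjusted p = 3.34e-06). Dppa3, which shields methylation in the zygote, had 4.39 FPKM in each Cct7 KD library and 65.2 and 75.4 in Cct7 KD Ctr. Dnmt3b, a de novo methyltransferase, fell by 1.69, with 17.9 and 17.5 FPKM in Cct7 KD and 59.5 and 59.1 in Cct7 KD Ctr.

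Other methylation genes of that list went up or did not pass. Dnmt1 had 84.1 and 87.1 FPKM in Cct7 KD and 70.02 and 69.09 in Cct7 KD Ctr, a difference of 0.30 that passed (limma adjusted p = 0.000264) but not after scaling, at 0.05. Its partner Uhrf1 did not pass, at -0.08, and passed as lower after scaling, at -0.33. Dnmt3l, the cofactor that sets imprints in germ cells, rose by 0.69, or 0.44 after scaling, with 166 and 168 FPKM in Cct7 KD and 103 in each Cct7 KD Ctr library. Smchd1, a chromatin protein that silences some imprinted clusters, rose by 0.44, or 0.20 after scaling. DNA methylation was not measured here, and no relation between these genes and the imprinted genes was tested.

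A second list held 47 other imprinted genes or neighbours of imprinted genes. Of these, 28 were tested in Cct7 KD, and 18 were higher and 5 lower, with a median of 0.39 against 0.15 for all genes, of which 49.3% were higher and 32.0% lower. After scaling 15 were higher and 8 lower, against 37.1% and 44.0% of all genes. The largest rises, for a mean of 2 FPKM or more, were those of Tfpi2, of Nap1l5, a nucleosome assembly protein relative, at 1.46, and of H13; Tfpi2 and Nap1l5 entered the test only through their Cct7 KD levels. The largest falls were those of Ddc, the enzyme that makes dopamine and serotonin, which lies beside Grb10, at -1.38, of Cobl, an actin nucleator on the other side of Grb10, at -1.15, and of Trappc9, the host of Peg13, at -0.20. Ddc had 5.15 and 5.35 FPKM in Cct7 KD and 15.0 and 15.5 in Cct7 KD Ctr, while Grb10 itself rose.

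In Cct5 KD most deposited values lay above their controls, for 15667 of 21039 IDs in both libraries. Both libraries lay above both controls for 32 of the 40 imprinted genes and below for 4, and the groups overlapped for 4, while 88.7% of all IDs had no overlap. Of 31 imprinted genes tested, 24 were higher and 3 (Peg3, Usp29 and Phlda2) lower, against 78.0% and 11.3% of 14179 genes (89.3% in either direction). Without the filter 29 of 40 were higher and 4 lower, against 66.3% and 10.4% of 21039 genes (76.7% in either direction). The median was 0.89 for the imprinted genes and 0.68 for all genes, and scaling moved these to 0.09 and -0.05 and the split to 17 higher and 14 lower, against 37.7% and 43.7% of all genes (81.4% in either direction). At 2-fold or more on the log2(FPKM + 1) scale, 14 imprinted genes were higher and 2 lower, against 31.2% and 2.17% of all genes (33.3% in either direction), and after scaling 8 were higher and 3 lower, against 8.75% and 8.90% (17.6% in either direction). By allele, 8 of 17 paternally expressed genes were higher and 1 lower, and 4 of 12 maternally expressed genes were higher and 1 lower. After scaling these counts were 7 and 2 of 17, and 0 and 1 of 12.

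Because of the shared multiple, the Cct5 KD values of single genes resemble those of Cct7 KD. Peg10 had 721 and 727 FPKM in Cct5 KD and 53.4 and 53.3 in Cct5 KD Ctr, a log2 difference of 3.74, or 2.92 after scaling. Sgce had 48.6 and 49.4 FPKM in Cct5 KD and 4.47 and 3.56 in Cct5 KD Ctr (3.32, or 2.58 after scaling). Phlda2 had 11.2 FPKM in each Cct5 KD library and 34.2 and 36.8 in Cct5 KD Ctr (-1.58, or -2.36 after scaling). These values count the Cct7 KD libraries a second time and were not taken as a repeat of them.

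The remainder, Cct5 KD less 1.125 times its same-numbered Cct7 KD library, is what the Cct5 KD columns add. Its steps imply about 55930000 and 52750000 fragments. It made up a median of 18.6% of the Cct5 KD value over 32 imprinted genes with at least 1 FPKM in Cct5 KD, and 22.1% over 14673 such genes in all. For Peg10 the remainder was 2.0% of the Cct5 KD value, for H19 2.8%, for Igf2 3.7% and for Mest 7.4%, and for Meg3 it was 39.3%. Scaled together with Cct5 KD Ctr, 28 imprinted genes were tested in the remainder, and 10 were higher and 15 lower, against 41.6% and 43.3% of 11688 genes (84.9% in either direction), with a median of -0.26 against -0.01 for all genes. Of 15 paternally expressed genes 5 were higher and 10 lower, with a median of -0.49. Of 11 maternally expressed genes 4 were higher and 4 lower, with a median of -0.03.

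**Figure D5:**
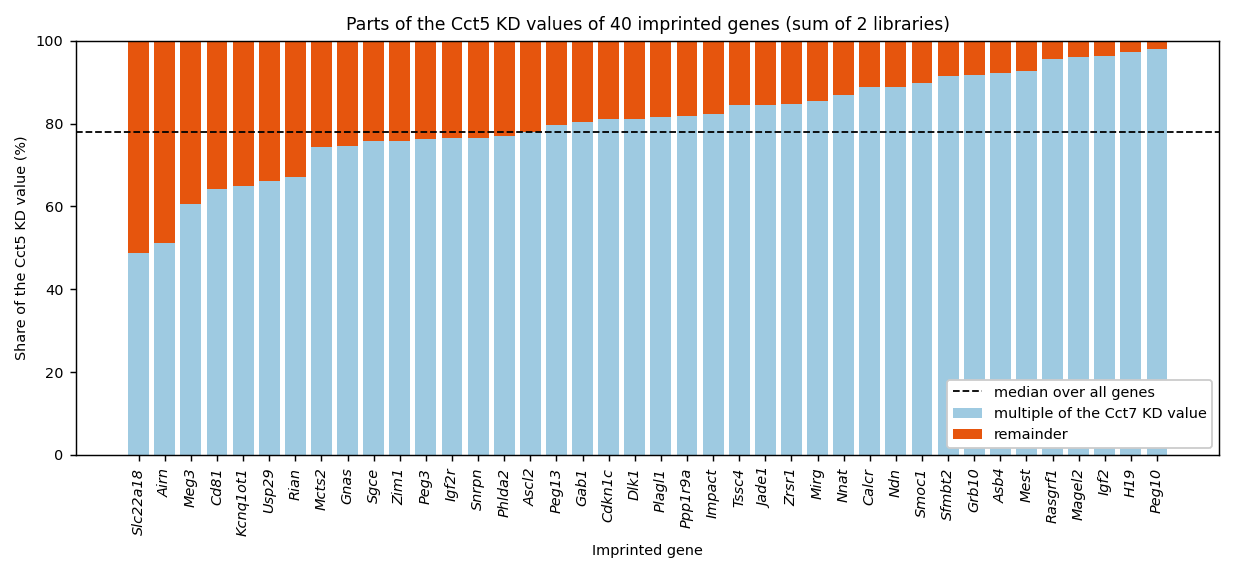
Share in percent of the summed Cct5 KD value of each imprinted gene that is the multiple of the Cct7 KD value (light blue) and the remainder (orange), ordered by the remainder's share; the dashed line is the multiple's share at the median over 14673 genes. Peg10, H19 and Igf2 are almost wholly the multiple, while Meg3, Cd81 and Rian have large remainders.

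Several rises of the Cct7 KD libraries were also in the remainder. Sgce had remainders of 11.95 and 11.91 FPKM, against 4.47 and 3.56 in Cct5 KD Ctr before scaling, and was higher by 2.54 after it (limma adjusted p = 8.64e-07). Plagl1 was higher by 1.55, Gnas by 1.52, Nnat by 1.47, Ndn by 0.53 and Sfmbt2 by 0.29, all past the test. Unscaled, Plagl1 had remainders of 11.1 FPKM in each library, against 8.96 and 8.64 in Cct5 KD Ctr. Gnas had 33.7 and 34.3, against 29.0 and 30.5, and Nnat had 8.31 and 9.33, against 7.285 and 7.193. The rises of Plagl1, Gnas and Nnat thus come mostly from the scaling. Before scaling, the remainders of Ndn (1.27 and 1.00 FPKM) and Sfmbt2 (2.43 and 2.57) lay below Cct5 KD Ctr. The controls had 1.42 and 1.65 FPKM for Ndn and 5.00 and 5.02 for Sfmbt2, so these rises come from the scaling. Phlda2 was lower, at -2.16, as were Peg3, at -1.12, and Mcts2, at -0.61, again all past the test. These 9 genes had the direction seen in Cct7 KD; how the Cct5 KD columns were made is not given, so the remainder has an error of unknown size.

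Other genes went the opposite way in the remainder. Peg10 had 14.4 and 14.5 FPKM there, against 53.4 and 53.3 in Cct5 KD Ctr before scaling, and was lower, at -0.49, after it (limma adjusted p = 6.57e-06), so that Sgce and Peg10, which start 0.099 kb apart, parted. H19 had 3.93 and 3.96 FPKM, against 69.5 and 70.5 in Cct5 KD Ctr, and was lower, at -2.59 (limma adjusted p = 8.88e-08). Mest had 63.3 and 59.4 FPKM, against 325 and 332 in Cct5 KD Ctr, and was lower, at -1.04 (limma adjusted p = 1.61e-06). Grb10 and Impact were lower, at -0.58 and -0.23, against rises in Cct7 KD. Meg3, which did not pass in Cct7 KD, was higher by 0.73, and Cd81 and Rian were higher by 1.04 and 0.46, opposite only to their Cct7 KD values after scaling. Before scaling, the remainders of Meg3 (66.9 and 70.8 FPKM), Cd81 (54.8 and 52.5) and Rian (52.7 and 53.5) lay below Cct5 KD Ctr. The controls had 105 and 109, 65.2 and 69.0, and 100 and 99.5 FPKM, so these rises come from the scaling. The cause of the opposite directions was not tested.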

How the data were processed

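FPKM values were deposited by the authors, a table per knockdown that also holds its control libraries. HTSeq and the mm10 assembly are named per the submitters' processing notes, while the aligner, annotation, gene lengths, strand setting and versions were not given in the sources used here. Per the labels' protocols, libraries were poly(A)-selected, strand-marked with dUTP and read as pairs on a DNBSEQ-T7. Gene symbols and coordinates came from GENCODE M21 (GRCm38), and IDs listed more than once (8 and 6) were left out.

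The members and lists were chosen with earlier results of these data known. Genes averaging 1 FPKM or more were tested with limma 3.58.1 in R 4.3.3 (empirical Bayes, trend on the mean) on log2(FPKM + 1), 2 libraries against 2, with Benjamini-Hochberg adjustment over all genes tested and a threshold of 0.05. Fold changes on this scale understate changes of low genes. The fit was tested on simulated data. Depth was read from the steps between low FPKM values, where at least 95% of values had to be whole multiples. For a transcript of 1 kb, a single fragment was worth 0.0183 FPKM at the greatest depth and 0.0531 at the least.

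Named genes were all members, 5 fixed imprint maintenance factors and the 2 largest rises and falls of that list, the 3 largest rises and falls of the other imprinted genes, and genes overlapping members; other neighbours were chosen after their values were seen. Alternatives were median-of-ratios scaling, no filter, a pseudocount of 0.1, a minimum fold of 2, blocking on replicate number, a joint fit of 8 libraries, the omission of each library, and, for Cct5 KD, the remainder alone.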

Additional observations from a re-analysis of the deposited data

Results flagged for a closer look

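Snrpn and Smoc1 stood out because both libraries of Cct7 KD lay below both of their controls, and both libraries of Cct5 KD above both of theirs, so that the 2 knockdowns pointed in opposite directions. For Snrpn the log2 ratio of means was 0.126 in Cct5 KD and -0.209 in Cct7 KD, a gap of 0.334. For Smoc1 it was 0.185 in Cct5 KD and -0.146 in Cct7 KD, a gap of 0.331. For Slc22a18 the means also differed in direction, but in Cct5 KD its libraries overlapped the controls. The differences were not tested, since the Cct5 KD columns contain a multiple of the Cct7 KD columns, and after median-of-ratios scaling Snrpn and Smoc1 were lower in both knockdowns. Gm38393, which shares exon bases with Snrpn, passed as lower in both without scaling, at -0.56 in Cct7 KD and -0.21 in Cct5 KD.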

How the results depend on the processing

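Of the counts of imprinted genes called, scaling moved those called lower most, to 12 in Cct7 KD and 14 in Cct5 KD, and the remainder, which was also scaled, gave 10 higher and 15 lower, against 17 and 14 for the scaled and 24 and 3 for the unscaled Cct5 KD values. A minimum of 2-fold left 9 higher and 3 lower in Cct7 KD and 14 higher in Cct5 KD. Leaving out each library in turn gave 17 to 20 higher and 4 to 5 lower in Cct7 KD, and 22 to 25 higher and 3 to 4 lower in Cct5 KD. Scaling by the median of ratios reversed, in Cct7 KD, Igf2r (-0.019), Rian (-0.13), Cd81 (-0.082), Gab1 (-0.059) and Jade1 (-0.17). In Cct5 KD it reversed Meg3 (-0.12), Rian (-0.13), Snrpn (-0.68), Cdkn1c (-0.38), Slc22a18 (-0.34), Zrsr1 (-0.23), Gab1 (-0.17), Jade1 (-0.38) and Smoc1 (-0.56). In the scaled remainder, Snrpn (-0.56), Cdkn1c (-0.46), Zrsr1 (-0.58), Gab1 (-0.30), Jade1 (-0.84) and Smoc1 (-1.20), which scaling alone reversed, were again negative, and Peg10 (-0.49), H19 (-2.59), Mirg (-0.025), Grb10 (-0.58), Tssc4 (-0.11), Mest (-1.04) and Impact (-0.23) were so only there. Leaving out a library turned 3 differences near 0: Meg3 in Cct7 KD ran from -0.080 to 0.021 (positive without Cct7 KD replicate 1), Cdkn1c in Cct7 KD from -0.076 to 0.056 (positive without Cct7 KD replicate 2 or Cct7 KD Ctr replicate 2), and Ascl2 in Cct5 KD from -0.17 to 0.081 (positive without Cct5 KD Ctr replicate 2). Snrpn in Cct5 KD (0.12) no longer passed without Cct5 KD replicate 1 or 2 or Cct5 KD Ctr replicate 2, and Rian in Cct7 KD (0.12) without Cct7 KD replicate 1. Beyond the reversals that scaling itself makes, the causes were not tested.

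With the replicate number as a block, 20 imprinted genes were higher and 5 lower in Cct7 KD, Ascl2 being lost (adjusted p = 0.0726 with limma), and 24 were higher and 3 lower in Cct5 KD. The numbers give no sign of pairing, with correlations of same-numbered deviations of -0.04 over 13588 genes and -0.01 over 14179. With no filter the counts were 23 and 6 in Cct7 KD and 29 and 4 in Cct5 KD, and with a pseudocount of 0.1 they were 20 and 5, and 24 and 3. Airn, at under 10 fragments in each Cct7 KD and Cct7 KD Ctr library, is limited by depth, and 2 libraries per group limit the precision of all values.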
